A study of Sus scrofa with 4 samples.

Results

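PLIN2 and CIDEB encode proteins of the lipid droplet, and their transcripts were followed in porcine (Sus scrofa) blastocysts on two-colour oligonucleotide arrays. Every probe that the platform annotation assigns to either symbol was taken, whatever its signal. That gave 1 probe for PLIN2 (EMPV1_01253) and 2 for CIDEB, called the first (EMPV1_26637) and the second (EMPV1_10598). They stand for 2 of the 10024 gene symbols on the array.

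A lipid droplet is a store of neutral lipid, mainly triacylglycerol and sterol esters, inside a single layer of phospholipid that carries its own coat proteins. PLIN2, or perilipin 2, is the coat protein found on droplets of most cell types. It shields the stored lipid from lipases, is degraded when it is not bound to a droplet, and is encoded by a known target gene of the peroxisome proliferator-activated receptors (PPARs), which fatty acids activate. CIDEB belongs to the CIDE family, whose members sit where droplets touch and let lipid pass from the smaller to the larger one. In mouse liver CIDEB also helps to load lipid onto very low density lipoproteins. Porcine oocytes and early embryos are known for their large stores of lipid droplets.

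In the NEFA group, the oocytes had met high non-esterified fatty acids (NEFAs, which adipose tissue releases into the blood during fasting) before they became blastocysts. In the control group they had not. The design describes 4 pools of 10 blastocysts from days 7 and 8, and it does not say whether that number is per condition or whether a pool mixed the days. Each of the 4 arrays carried 1 NEFA pool and 1 control pool. The NEFA pool was in the Cy3 channel on arrays 1 and 2 and in Cy5 on arrays 3 and 4. The labels give neither the fatty acids nor their dose, and no breed. Each RNA was amplified before labelling. A pool averages over whole embryos, so fewer cells of a type and less RNA per cell cannot be told apart. Nothing in the labels says that the pools came from separate cultures, so the p-values reflect the variation among these 4 arrays alone, which may be technical.

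A spot was counted as above background when its corrected intensity passed a limit, set 2 SD above the mean of the 153 negative controls in the same channel of the same array. Between 38.2% and 48.9% of the 43794 probes passed in a channel. The 17127 probes tested had passed in 3 or 4 pools of a condition, and they cover 4686 named genes. Of the trophectoderm markers, 7 of 11 were measured, with a summed intensity of 74353 to 85860 in NEFA pools and 67597 to 87679 in control pools. GATA2, TEAD4, TFAP2C and DAB2 were above the limit in 8 of 8 channels, and no probe carries the symbol CDX2, KRT8 or KRT18. None of the 8 inner cell mass markers was measured. SOX2 passed in 2 channels and KLF4 in 0, while POU5F1 and NANOG have no probe under those symbols. Primitive endoderm markers had 3 of 7 measured and spanned 4350 to 6060 in NEFA and 3893 to 6080 in control pools. Of 11 cumulus and granulosa markers, 2 were measured, FST and AMH, with sums of 4213 to 12722 against 5397 to 9747. Oocyte markers (4 of 7) spanned 1320 to 1745 against 1314 to 1655, and the 1 sperm marker measured of 5, ODF2, spanned 227 to 273 against 226 to 328. These sums, to which bright probes add most, overlapped between conditions in every list with a measured marker. The ranges run over the 4 arrays and not within an array, so overlap does not show that paired pools were alike. ELF5, a trophectoderm factor named here after its values were seen, passed in 0 NEFA and 3 control pools. Its log2 ratios of NEFA over control were -0.15, -0.31, -0.34 and -0.60, with an unadjusted p of 0.0492 (adjusted 1.00) in limma. ELF5 entered the test through the control pools alone, which favours a lower value in NEFA pools. Of the 7 measured trophectoderm markers, 4 had a mean log2 ratio below 0 and 3 above. Those above were TEAD4 (0.14), TFAP2C (0.22) and TFAP2A (0.08). Like ELF5, GATA3 (-0.35) was below 0 and entered through the control pools alone, having passed in 2 NEFA and 3 control pools. The part of these markers in the values below was not tested.

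PLIN2 was among the brightest probes of the array in all 8 channels. In the NEFA pools its raw median intensity was 29554, 26141, 24517 and 22954 on arrays 1 to 4. In the control pools it was 40117, 25815, 27631 and 28929. The control pool was the brighter channel on arrays 1, 3 and 4 before any correction, and the NEFA pool was slightly brighter on array 2. Against the median of the negative control spots of the same channel, the signal was 88.0, 93.4, 125.7 and 125.4 times as high in the NEFA pools, a mean of 108.1 ± 20.3 (SD, n = 4). In the control pools it was 190.1, 104.9, 125.0 and 120.0 times as high, a mean of 135.0 ± 37.7 (SD, n = 4). The ranges of the conditions overlap on this scale, and the highest value is the control pool of array 1. By this measure the control pool was higher on arrays 1 and 2, and the NEFA pool slightly higher on arrays 3 and 4. No PLIN2 spot was saturated or carried a scanner flag. Only 333 to 517 probes of a channel were brighter, which ranks the spot and not the abundance of the transcript, since probes differ in how strongly they bind.

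CIDEB lay close to the detection limit. The raw median intensity of its first probe was 524, 450, 287 and 223 in the NEFA pools and 413, 379, 452 and 452 in the control pools. Those signals were 1.56, 1.61, 1.47 and 1.22 times the negative control median in the NEFA pools (1.47 ± 0.17, SD, n = 4) and 1.96, 1.54, 2.05 and 1.88 times in the control pools (1.86 ± 0.22, SD, n = 4). The first probe therefore stood less than a factor of 2.05 above spots that match no transcript, where PLIN2 stood at least 88.0 times above them. It passed the limit in 4 of 4 control pools and in 3 of 4 NEFA pools. The pool that missed it was the NEFA pool of array 4, whose corrected intensity was 0.90 of the limit. The other channels ran from 1.09 to 1.62 times the limit.

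The second CIDEB probe passed the limit in too few pools to be among the probes tested. Its raw median intensity was 508, 386, 248 and 231 in the NEFA pools and 281, 265, 292 and 340 in the control pools. It passed the limit in the NEFA pools of arrays 1 and 2 and in the control pool of array 4, or in 3 of 8 channels, and all 3 were Cy3 channels. Over the negative control median it reached 1.36 ± 0.12 in NEFA and 1.29 ± 0.15 in control pools (SD, n = 4 each).

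**Figure D1:**
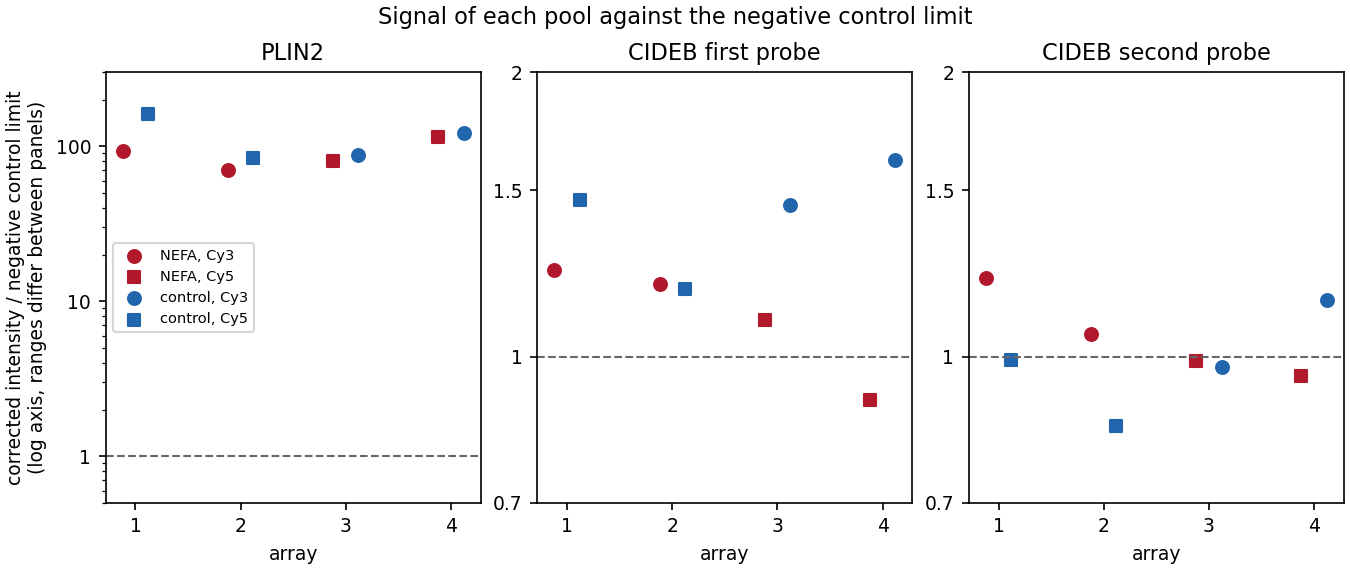
Background-corrected intensity of each pool divided by the negative control limit of its channel (log axis, with different ranges between panels), by array, for the PLIN2 probe and both CIDEB probes; red is NEFA, blue is control, circles are Cy3 and squares are Cy5, and the dashed line is the limit. PLIN2 lies far above the limit in all 8 channels, the first CIDEB probe passes it in 7 and the second in 3.

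The comparison asked whether exposure of the oocyte to NEFAs went with a different level of either transcript in the blastocyst. After normalisation within each array, the PLIN2 log2 ratio of NEFA over control was -0.31, -0.11, -0.14 and -0.32 on arrays 1 to 4, or 0.80, 0.93, 0.91 and 0.80 as a fold. All 4 ratios were below 0, in both dye orientations. Across all tested probes, 4.29% were lower in the NEFA pool on 4 of 4 arrays and 51.6% had a mean below 0. The limma fit with a dye term gave -0.22 ± 0.14 (SE, n = 4), with a 95% interval of -0.56 to 0.13. As a level this is 0.86-fold, a difference of -14.1%, with an interval from -32.3% to 9.0%. Its unadjusted p in limma was 0.168 and its Benjamini-Hochberg adjusted p was 1.00. An exact sign permutation test over the 4 arrays gave p = 0.125 (two-sided), the smallest it can give with 4 arrays.

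PLIN2 showed almost no preference for a dye after the normalisation within each array (loess). The mean ratio was -0.21 on the arrays with NEFA in Cy3 and -0.23 on those with NEFA in Cy5. With median centring in place of loess, the ratios were -0.75 and -0.34 with NEFA in Cy3. They were -0.15 and 0.05 with NEFA in Cy5. The sign on array 2 came with the normalisation. There the corrected log2 ratio of Cy5 over Cy3 was -0.02 and loess moved it by 0.13, which put the NEFA pool below its control. Normalised log2 levels, set on 1 scale across the arrays, were 14.64, 14.49, 14.67 and 14.75 in the NEFA pools (14.63 ± 0.11, SD, n = 4) and 14.96, 14.60, 14.80 and 15.06 in the control pools (14.85 ± 0.20, SD, n = 4). The NEFA pool lay below the control pool of its own array each time, but the groups overlapped.

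For the first CIDEB probe the log2 ratio of NEFA over control was -0.25, -0.06, -0.34 and -0.73 on arrays 1 to 4, or 0.84, 0.96, 0.79 and 0.60 as a fold. Again 4 of 4 were below 0, with array 2 near 0 and array 4 lowest. The limma estimate was -0.35 ± 0.15 (SE, n = 4), with a 95% interval of -0.71 to 0.02. That is 0.79-fold, a difference of -21.3% with an interval from -39.0% to 1.5%. In limma the unadjusted p was 0.0609, smaller than for all but 2.16% of tested probes, and the adjusted p was 1.00. The exact sign permutation test again gave its minimum, p = 0.125 (two-sided). Over the whole array, 0% of tested probes had an adjusted p under 0.05 and 1.54% had an unadjusted p under 0.05, neither gene among them.

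The CIDEB ratio was larger in one dye orientation than in the other, at a mean of -0.16 with NEFA in Cy3 and -0.53 with NEFA in Cy5. On arrays 1 and 2 the NEFA channel was the brighter one before loess, with corrected log2 Cy5 over Cy3 at -0.12 and -0.29. Loess moved those ratios by 0.37 and 0.35 and so turned their direction. Normalised log2 levels were 8.36, 8.40, 8.42 and 8.00 in the NEFA pools (8.29 ± 0.20, SD, n = 4) and 8.61, 8.46, 8.75 and 8.73 in the control pools (8.64 ± 0.14, SD, n = 4). These groups did not overlap, which held, with NEFA as the lower group, for 0.695% of tested probes. The smallest distance between them, from the NEFA pool of array 3 to the control pool of array 2, was less than the SD within either group.

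The second CIDEB probe did not follow the first. Its log2 ratios were 0.19, 0.23, 0.02 and -0.15, above 0 on 3 of 4 arrays. Fitted without the filter on dim probes, its estimate was 0.07 ± 0.11 (SE, n = 4), with a 95% interval of -0.20 to 0.34. The exact sign permutation test gave p = 0.375 (two-sided). The second probe lay 0.44, 0.29, 0.35 and 0.59 above the first on the log2 scale of the ratio, with the same sign on 4 of 4 arrays. With 1 probe just above background and 1 mostly below it, the direction for CIDEB depends on which probe is read. Where on the transcript each probe lies was not analysed here.

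**Figure D2:**
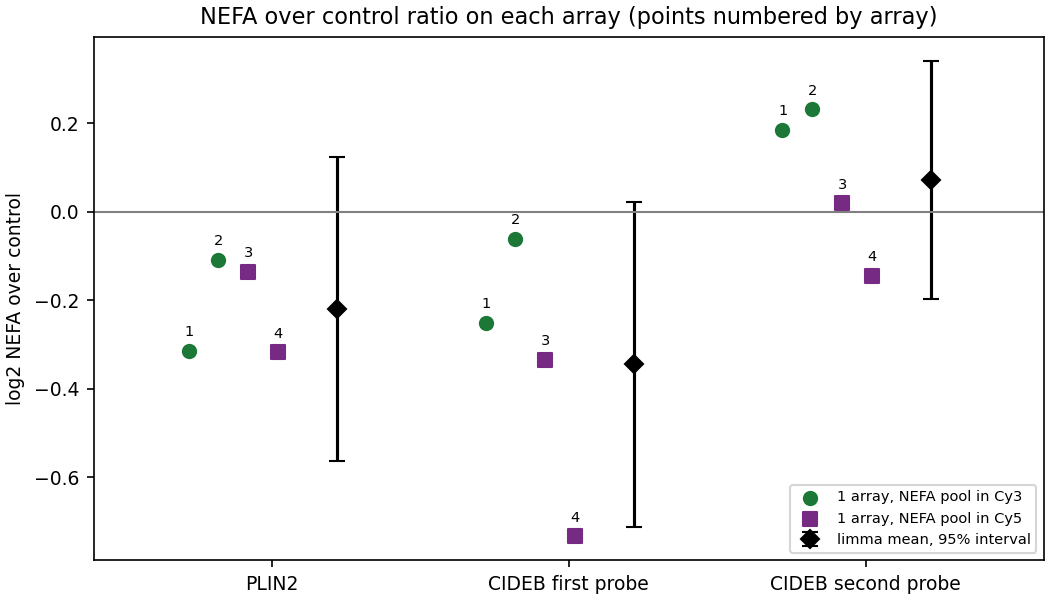
Log2 ratio of NEFA over control on each array (points numbered by array, circles with the NEFA pool in Cy3 and squares with it in Cy5) and the limma mean with its 95% interval (diamonds). All 4 points lie below 0 for PLIN2 and the first CIDEB probe, 3 of 4 lie above 0 for the second, and each of the 3 intervals includes 0.

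The deposited files allow both genes to be read in other ways. In the authors' deposited table, turned to NEFA over control, PLIN2 stood at -0.16, -0.10, -0.28 and -0.23 and the first CIDEB probe at -0.17, -0.05, -0.47 and -0.73. The authors' deposited table gave the second CIDEB probe 0.20, 0.37, -0.03 and -0.16. With median centring in place of loess, PLIN2 was at -0.75, -0.34, -0.15 and 0.05, so that array 4 lay above 0. With the mean pixel of each spot in place of the median, an alternative chosen after seeing the data, PLIN2 was at -0.56, 0.13, 0.05 and -0.38, below 0 on only 2 of 4 arrays. The first CIDEB probe then stood at -0.05, 0.10, -0.10 and -0.45, with an estimate of -0.12. The mean pixel of the PLIN2 spot was 0.78 to 0.96 of its median, where the median probe of a channel had 0.90 to 0.94. PLIN2 was lower on 4 of 4 arrays with the median pixel and loess, with or without background correction, and not with median centring or the mean pixel.

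The direction of both values rests on the dye orientations given in the labels. Turned by those labels, the arrays did not resemble each other over the 17127 probes: Pearson's r between pairs ran from -0.54 (arrays 2 and 4) to 0.16 (arrays 3 and 4), a description across probes that share a slide and dyes. When the orientations of arrays 2 and 3 were exchanged, 1219 probes had an adjusted p under 0.05 in limma, against 0 with the labels as given. PLIN2 then had log2 ratios of -0.31, 0.11, 0.14 and -0.32 and the first CIDEB probe -0.25, 0.06, 0.34 and -0.73, so that each was below 0 on 2 of 4 arrays, with estimates of -0.10 and -0.15. The opposite exchange, of arrays 1 and 4, is the mirror image and gave 0.10 for PLIN2 and 0.15 for CIDEB with the same 1219 probes. Neither gene passed the threshold in either exchange. The labels were kept, and whether they hold was not tested.

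**Figure D3:**
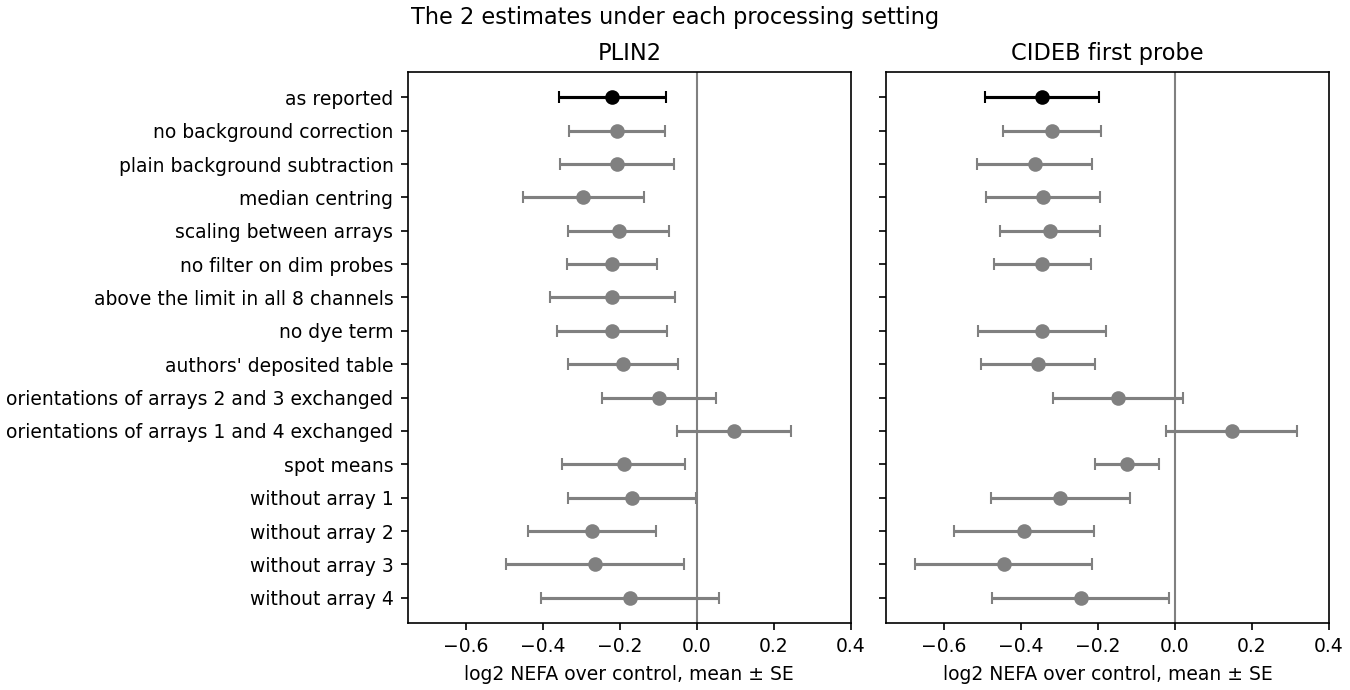
Limma estimate of log2 NEFA over control, mean ± SE, for PLIN2 and the first CIDEB probe as reported (black) and under each alternative (grey). With arrays 1 and 4 exchanged the estimates are 0.10 and 0.15. Under every other setting shown they are below 0, from -0.29 to -0.10 for PLIN2 and from -0.45 to -0.12 for CIDEB, which has no value when all 8 channels must pass the limit.

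PLIN2 and CIDEB had close ratios on arrays 1 and 2 and less close ones on arrays 3 and 4. PLIN2 minus CIDEB, as a difference of log2 ratios, was -0.06, -0.05, 0.20 and 0.42. Their root mean square difference over the 4 ratios was 0.23. In nearness to PLIN2, CIDEB ranked 543 among the 4685 other named genes, and in nearness to CIDEB, PLIN2 ranked 193. The 3 genes nearest to PLIN2 were NDUFAF1, an assembly factor of respiratory complex I, at a root mean square difference of 0.05, MCCD1 at 0.05 and TYK2, a Janus kinase, at 0.06. The median gene lay 0.40 away. Nearest to CIDEB were TRAPPC3, a subunit of a vesicle tethering complex, at 0.04, FBXW2, an F-box protein, at 0.05, and MYL3, a myosin light chain, at 0.07, against a median of 0.52. Each match rests on 4 values and describes these arrays only.

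Among the other perilipins, PLIN2 was the only one far above background. PLIN1, the perilipin of adipocytes, passed the limit in 0 of 8 channels, at 0.95 to 1.25 times the negative control median. PLIN4 passed in 3 channels, at 1.21 to 1.63 times, and was not tested. PLIN5, the perilipin of oxidative tissues such as heart, passed in 3 NEFA and 2 control pools, and its log2 ratio was 0.66, 0.19, -0.14 and -0.15 on arrays 1 to 4, with an estimate of 0.14 ± 0.15 (SE, n = 4). PLIN3 has no probe under that symbol. Of the CIDE family, CIDEA has none either. CIDEC, which drives droplet fusion in fat cells, passed in 4 NEFA and 2 control pools, and its log2 ratio was 0.40, 0.13, 0.68 and -0.44, with an estimate of 0.19 ± 0.22 (SE, n = 4). Without array 3 it was -0.09. PLIN5 and CIDEC both entered the test through the NEFA pools alone. Levels cannot be ranked between these genes, since each is read by another probe.

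Beyond the members themselves, 67 genes of droplet biology were listed in 5 groups, 50 of them are on the array and 32 were measured. Of these, 21 had a mean below 0 and 11 above, or 65.6% below 0 beside 51.6% of all tested probes, and their median was -0.04 beside -0.01. Of the 32, 6 passed the filter through 1 condition only, which favours a difference toward that condition, and 5 of those 6 had it. So did 2974 of the 3479 tested probes that passed through 1 condition only. Among the 26 droplet genes that passed through both, 18 were below 0 and 8 above. That is 69.2% below 0, beside 51.7% of the 13648 tested probes that passed through both. The limma fit called 0 at an adjusted p of 0.05. Of the 32, 0 were lower on 4 of 4 arrays, beside 4.29% of all tested probes. ACSL3 and VCP were higher on 4 of 4, as were 3.54% of tested probes. The count below 0 ran from 15 to 22 of these 32 under the other settings, with 15 for the mean pixel.

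Droplet lipolysis had 6 measured genes, 3 on each side of 0, with a median of 0.06. Of those below, G0S2 passed in 1 NEFA and 3 control pools and so entered through the control pools alone. The 5 that passed through both conditions had 3 above 0 and 2 below, with a median of 0.13. ABHD5, the co-activator of the droplet lipase PNPLA2, had an estimate of 0.27 ± 0.18, LIPA, the lysosomal acid lipase, of -0.20 ± 0.25, and DDHD2, a triacylglycerol hydrolase of the brain, of 0.13 ± 0.17 (SE, n = 4 arrays each). Without array 4, LIPA was at 0.11 and DDHD2 at -0.02, each with the opposite sign. None of the 6 genes was called.

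In the synthesis of triacylglycerol and sterol esters, 2 of 10 measured genes were above 0 and 8 below, with a median of -0.08. The 8 that passed through both conditions had 2 above 0 and 6 below. ACSL3, which activates fatty acids on forming droplets, had log2 ratios of 0.17, 0.84, 0.75 and 0.22 and an estimate of 0.49 ± 0.18 (SE, n = 4), with an unadjusted p of 0.0379 and an adjusted p of 1.00 in limma. It was -0.30 when the dye labels of arrays 2 and 3 were exchanged. MOGAT1, a monoacylglycerol acyltransferase, passed the limit in 1 NEFA and 3 control pools, so that it entered through the control pools alone, and its estimate of -0.44 ± 0.21 (SE, n = 4) rests on 3 NEFA pools not above background. GPAM, a mitochondrial enzyme of the initial acylation of glycerol phosphate, had -0.43 ± 0.27 (SE, n = 4), with array 2 at 0.54 against -1.02 to -0.46 on the others.

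Droplet assembly, growth and traffic held 14 measured genes, 4 above 0 and 10 below, with a median of -0.04. Of those above, TBC1D1 passed in 3 NEFA and 2 control pools and so entered through the NEFA pools alone. The 13 that passed through both conditions had 3 above 0 and 10 below. FAF2, which recruits the segregase VCP to droplets, had an estimate of -0.37 ± 0.17, while VCP itself had 0.19 ± 0.14 (SE, n = 4). FITM2, which takes part in droplet budding from the endoplasmic reticulum, had -0.26 ± 0.17. FAF2 ran from 0.34 on array 1 to -0.89 on array 4, and VCP from 0.03 to 0.39 with 4 of 4 above 0.

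**Figure D4:**
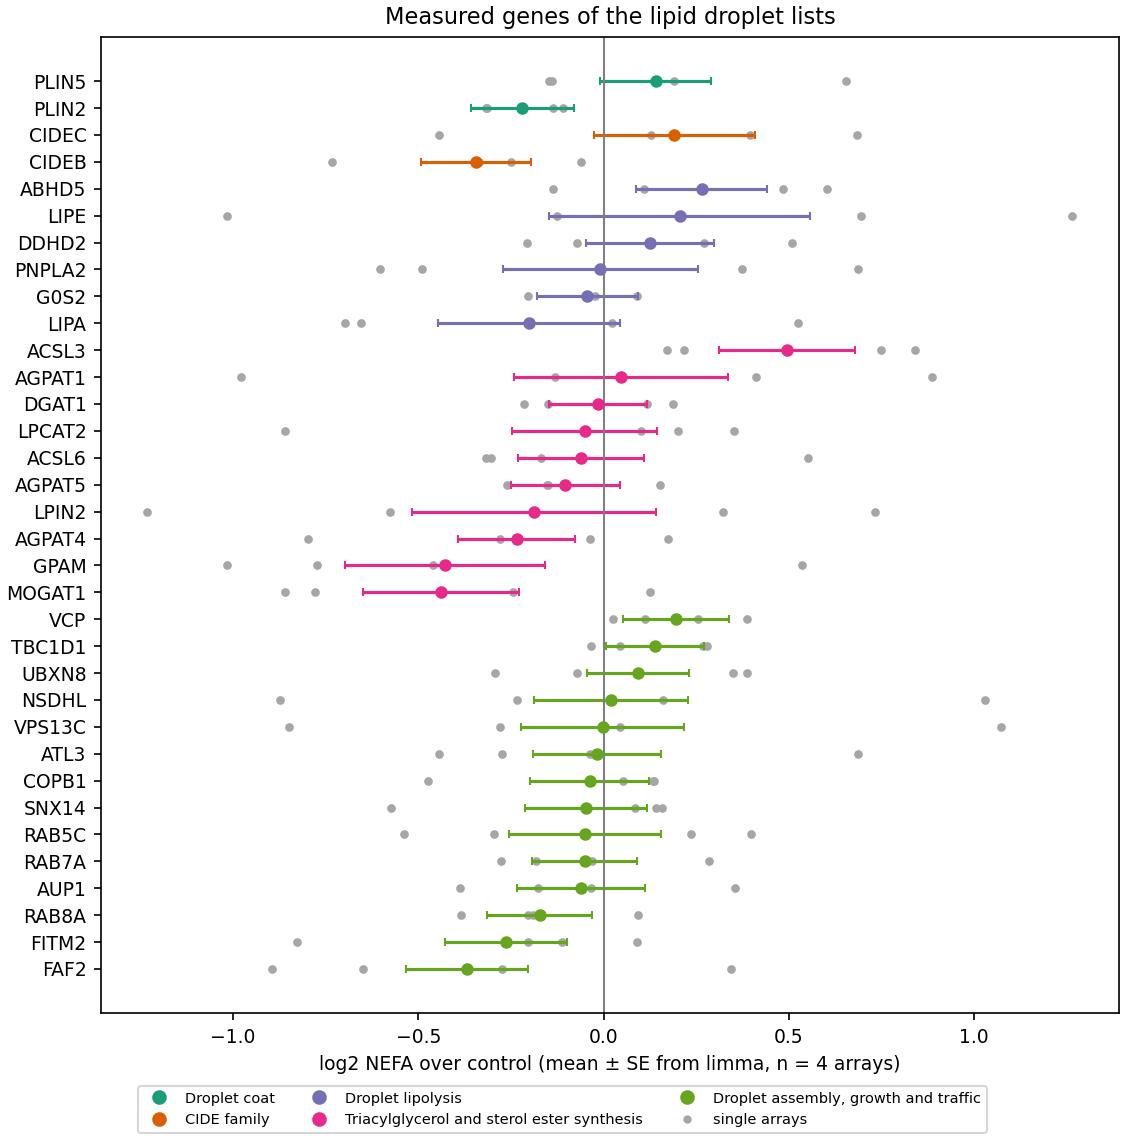
Log2 NEFA over control for every measured gene of the 5 droplet lists, PLIN2 and CIDEB (first probe) included: mean ± SE from limma in the colour of the list, with the 4 single arrays in grey. The single arrays of most genes fall on both sides of 0, those of PLIN2 and CIDEB all lie below it, and those of ACSL3 and VCP all lie above it.

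Lipoprotein assembly, the process in which CIDEB acts in mouse liver, had 5 measured genes, 1 above 0 and 4 below, with a median of -0.10. APOC3, an apolipoprotein that inhibits lipoprotein lipase, had log2 ratios of -0.15, -0.23, -0.06 and -0.55 and an estimate of -0.25 ± 0.15 (SE, n = 4). APOA1, the main protein of high density lipoprotein, had -0.32 ± 0.19 with array 2 at 0.51. APOE had 0.15 ± 0.14 by its brighter probe, and its other probe had the opposite sign. APOA1 passed in 2 NEFA and 3 control pools and APOE in 3 NEFA and 1 control pool, so each entered through the condition in which its mean was the higher. The other 3 genes passed through both and were below 0. APOB has no probe under that symbol, and MTTP, which loads lipid onto APOB, was not measured.

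PLIN2 is itself a known PPAR target. Of 17 other genes listed as PPARs, their partners or their lipid targets, 6 were measured. Their means were above 0, beside 48.4% of all tested probes, with a median of 0.16 over the 6, and 1 of them, ANGPTL4, had entered through the NEFA pools alone. Only ANGPTL4 was above 0 on 4 of 4 arrays. PPARD had a mean of 0.13 but ran from -1.16 on array 2 to 1.18 on array 4. HADHA had 0.04, and FGF21 had 0.02 with 3 of 4 arrays below 0. PPARA and PPARG were not above the limit often enough to be tested. ACADVL, the very long chain acyl-CoA dehydrogenase, had an estimate of 0.48 ± 0.23 (SE, n = 4), from -0.55 on array 2 to 1.63 on array 4. ACADM, its medium chain counterpart, had 0.19 ± 0.15. ANGPTL4, a secreted inhibitor of lipoprotein lipase, was not well above background in any control pool and passed in 3 of 4 NEFA pools. Its log2 means were 8.21 in NEFA and 7.98 in control pools, with ratios of 0.07, 0.12, 0.27 and 0.49 on arrays 1 to 4 and a limma adjusted p of 1.00. With the mean pixel its estimate was 0.02. None of the 6 was called, and a difference between them and PLIN2 was not tested.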

How the data were processed

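Total RNA of pooled blastocysts was amplified (RiboAmp) and coupled directly to Cy3 or Cy5, per the labels' protocols. The deposited scanner files give, for both channels, a spot's median pixel intensity and its local background, not yet normalised, per the file headers. The submitters' processing notes name limma, without a version. The authors' deposited table holds log2 ratios, which track Cy5 over Cy3 recomputed from the scanner values by subtraction and loess (r of 0.967 to 0.995). Its column medians were -0.02, and its centring stays unknown.

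Each array had 45220 spots, 1426 of them controls. Intensities were corrected with normexp (offset 50) followed by within-array loess, where control spots and spots with a scanner flag (35 to 75 probes per array) had weight 0. The offset pulls ratios of dim probes toward 0. Levels across arrays are after Aquantile. The limits lay at 237.0 to 369.1 in Cy3 and 200.9 to 306.4 in Cy5, on the corrected scale. The linear model (limma 3.58.1, lmFit and eBayes, R 4.3.3, with 3.67 prior degrees of freedom) had an intercept for dye and a term for NEFA that follows the labelled orientation. It covered all 17127 kept probes, with Benjamini-Hochberg adjustment over them. The small number of arrays limits precision, and the median probe had a 95% interval of ± 0.40. The fit was tested on simulated data, with an outcome not reported here, and that says nothing of how these 4 arrays vary.

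Symbols are those of the platform annotation and may be outdated: 13146 probes have 1 symbol and 30648 are unnamed here. Both members are in the current pig gene table. A gene with several probes was represented by its brightest kept probe with no scanner flag. PLIN2 and CIDEB were given by every probe and array, the 3 most alike genes by root mean square difference of the 4 ratios, and up to 3 genes per list by smallest unadjusted p. Members and lists were chosen with earlier results of these data known. Alternatives covered background, normalisation, filter, dye term, the deposited table, dye orientation, spot summary and single arrays.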

Additional observations from a re-analysis of the deposited data

Results flagged for a closer look

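In the NEFA pools, the normalised log2 level of the first CIDEB probe was 8.00 on array 4 against 8.36 to 8.42 on the other arrays. The gap to the nearest pool was 0.866 of the whole range, above Dixon's critical value for 4 samples. That pool was also the 1 channel in which the probe missed the negative control limit. It was the only pool singled out among 26 groups of 4 values tested, and chance marks about 1 in 20 groups.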

How the results depend on the processing

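PLIN2 kept a negative estimate under 14 of 15 alternatives and the first CIDEB probe under 13 of 14, in the ranges -0.294 to -0.097 and -0.445 to -0.124. With the orientations of arrays 1 and 4 exchanged, chosen after seeing the data, they were 0.097 and 0.147. None passed the threshold in limma (lowest adjusted p 0.749 and 0.743). With single arrays left out, PLIN2 ran from -0.271 to -0.168 and CIDEB from -0.445 (without array 3) to -0.245 (without array 4). Since all 4 ratios of each probe were below 0, leaving out an array could not turn the sign. The filters and the dye term left the estimates unchanged by construction, so those alternatives could not turn it either. Exchanged orientations of arrays 2 and 3, which turn the sign of their ratios by definition, moved both estimates by over 1.5 times (PLIN2 -0.097, CIDEB -0.147). Spot means moved CIDEB by over 1.5 times (-0.124), and the cause was not tested. The second CIDEB probe gave 0.073. With the limit required in all 8 channels CIDEB had no value, and signal over background limits it more than PLIN2.

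Probes past the adjusted threshold numbered 2 in the authors' deposited table and 1219 with either exchange. At an unadjusted p under 0.05, 263 probes became 865 with no filter on dim probes, 103 with all 8 channels required, 3205 with either exchange, and 100 (without array 4) to 805 (without array 2) with single arrays left out. The filters test other numbers of probes: 43793 with no filter on dim probes and 10914 with all 8 channels required, against 17127 as reported. The cause of these moves was not tested. In fits without an array, the lone array of an orientation is assumed to vary like the others.

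The 17 other genes kept their sign in 228 of 248 values. That count does not measure stability, since the filters and the dye term leave an estimate unchanged by construction. The exchange of arrays 1 and 4 mirrors that of arrays 2 and 3, so each gene had to turn in 1 of them. Exchanging arrays 2 and 3 turned CIDEC (-0.215), ABHD5 (-0.278), ACSL3 (-0.30), FAF2 (0.093) and APOE (-0.008). Exchanging arrays 1 and 4 turned PLIN5 (-0.114), LIPA (0.475), DDHD2 (-0.265), MOGAT1 (0.38), GPAM (0.466), FITM2 (0.207), VCP (-0.012), APOA1 (0.306), APOC3 (0.101), ACADVL (-0.433), ANGPTL4 (-0.044) and ACADM (-0.042). Leaving out 1 array moved 16 of the 17 by over 1.5 times, all but ANGPTL4. CIDEC then ran from -0.091 to 0.472, LIPA from -0.506 to 0.105, DDHD2 from -0.02 to 0.271, GPAM from -0.817 to -0.041, APOA1 from -0.538 to -0.097, FITM2 from -0.419 to -0.107, MOGAT1 from -0.666 to -0.213, ACADVL from 0.231 to 0.726 and PLIN5 from 0.024 to 0.256.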
